A study of Mus musculus with 3 samples.

Results

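Endocardial and cardiac transcription genes were followed through single-cell transcriptomes of adult mouse heart endothelium that had been cultured with embryonic stroma. The 8 genes, taken by name from a count table of 27,985 genes, were the endocardial genes Nfatc1, Npr3, Cytl1 and Hapln1, the GATA factors Gata4, Gata5 and Gata6, and the T-box factor Tbx20. The study asked how stroma of the embryonic aorta, gonad and mesonephros confers haemogenic potential on endothelium. Endothelial cells (CD31+ VE-Cad+) were sorted from hearts of mice, described in the methods as females 12 to 16 weeks of age, and were sampled fresh (0 h) or after 24, 48, 72 and 96 h in co-aggregates with PDGFRA+ stromal cells of the Mesp1 lineage from E11.5 embryos. All time points were mixed in each of 3 pools, and no label ties a cell to its time point or its pool. The 9,562 cells came from 3 libraries of 3507, 3958 and 2097 cells, told apart only by a barcode suffix, and the 7 deposited clusters, numbered 0 to 6, comprised 728, 799, 5396, 239, 518, 1572 and 310 of them.

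The endocardium is the endothelium that lines the heart chambers and covers the valves. Nfatc1, Npr3 and Cytl1 are among the genes known to mark it against the vessels of the heart muscle, and Hapln1 encodes a link protein that holds hyaluronan and proteoglycans together in cardiac jelly and valve matrix. Gata4, Gata5, Gata6 and Tbx20 encode DNA-binding factors that act together in heart mesoderm, myocardium, endocardium and valves, but Gata4 and Gata6 also act in gonad, gut and mesenchyme, and Npr3, Gata6 and Hapln1 are also expressed by vessels outside the heart.

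Because the matrix was 1 sample, values are given with 95% intervals that cover counting error only, and the range over the 3 libraries stands in for replicates. A level is the number of unique molecular identifiers (UMIs) of a gene per 10,000 UMIs of the cells it was summed over, and a cell was called positive above 0.5 counts per 10,000. These clusters were made by the authors from the same transcriptomes, so differences between clusters are descriptions without a test. Depth differed between clusters, from a median of 7875 UMIs for cluster 1 through 14,061 for cluster 0 and 22,493 for cluster 2 to 36,066 for cluster 5. Endothelial markers (Cdh5, Pecam1 and 6 others) had a summed level of 38.3 to 53.5 in clusters 0, 1 and 2 and of 4.24 to 6.52 in clusters 3 to 6, where none of the 8 was at 0. Cluster 3 carried germ cell or pluripotency markers at a summed level of 45.1, against at most 0.511 elsewhere, cluster 5 carried macrophage and neutrophil markers at 14.6 and 10.8, and cluster 6 carried megakaryocyte or platelet markers at 200.5. Cluster 1, besides its endothelial markers, held macrophage markers at 4.06. No endothelium of another organ was analysed here, so the members could not be set against cells of another origin or, without time points, against fresh cells. The libraries shared 13 barcodes, which named 26 cells. The methods state that the hearts were female, yet 45.4% of cells held a UMI of a Y-linked gene and none of Xist, 34.5% held Xist and no Y-linked UMI, 9.89% held both and 10.3% neither. Each cluster held cells of both kinds, and the values that differed between them are given below with the genes they touch.

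The most abundant of the 8 genes was Hapln1, with 60,568 UMIs in 67.5% of all cells, followed by Npr3 with 7747 UMIs, Gata6 with 3563 and Nfatc1 with 3392. The other members were rare, with 821 UMIs for Gata4, 559 for Tbx20, 385 for Cytl1 and 226 for Gata5, the last seen in 1.15% of cells. On the mm10 (GRCm38) assembly Nfatc1 lies at chr18:80606205-80713071 and Gata6 at chr18:11052064-11085635, Npr3 at chr15:11839896-11907287, Cytl1 at chr5:37735519-37739820, Hapln1 at chr13:89539796-89611652, Gata4 at chr14:63198922-63271692, Gata5 at chr2:180325133-180334699 and Tbx20 at chr9:24718138-24774303, all protein-coding. Counts are per gene, and 3′ reads do not tell isoforms apart.

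**Figure D1:**
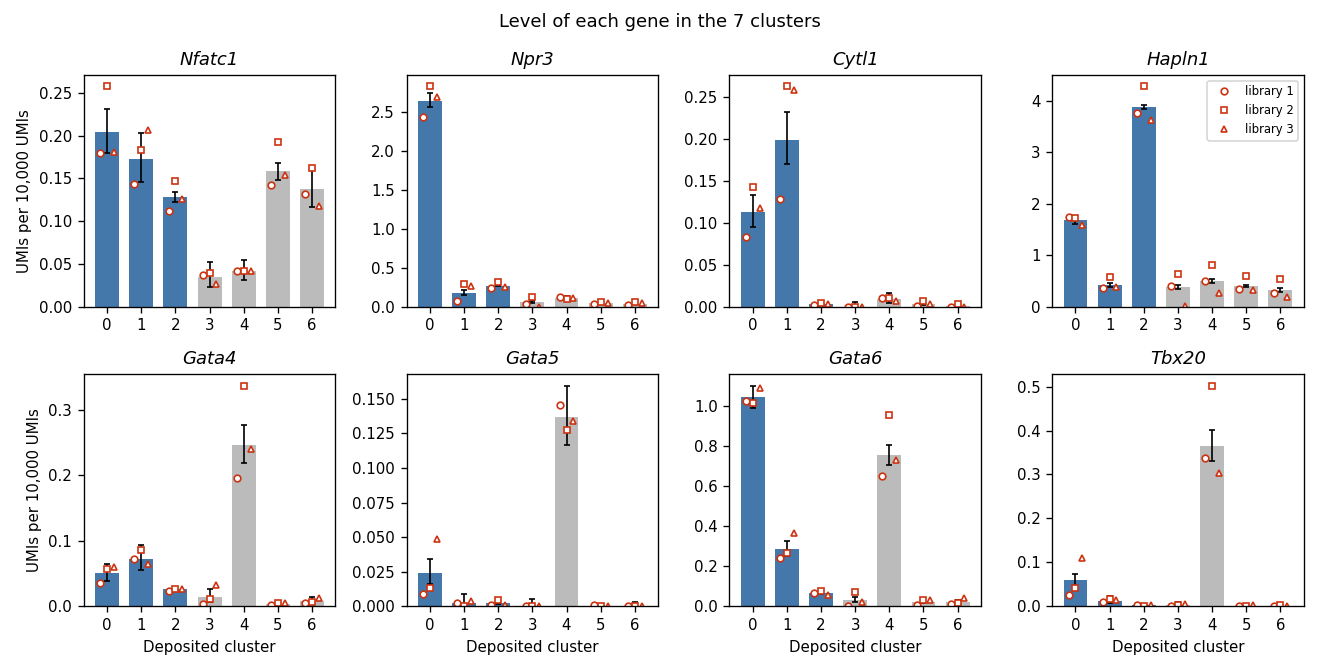
Level of each of the 8 genes (UMIs per 10,000 UMIs, linear axes that differ between panels) in the 7 deposited clusters. Bars give the sum over all cells with its 95% counting interval, blue for the endothelial clusters 0, 1 and 2 and grey for the others, and open symbols give the 3 libraries. Npr3 and Gata6 are highest in cluster 0, Hapln1 in cluster 2, Cytl1 in clusters 0 and 1, and Gata4, Gata5 and Tbx20 in cluster 4.

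Npr3, the clearance receptor for natriuretic peptides, set cluster 0 apart. Its level in cluster 0 was 2.44, 2.84 and 2.69 in libraries 1, 2 and 3, and 81.3% of these cells were positive (95% interval of the level 2.56 to 2.74). In cluster 2 it was 0.234, 0.321 and 0.256, with 19.1% positive cells. In clusters 5 and 6, which carry the haematopoietic markers, the level was 0.0436 and 0.0390. The lowest library of cluster 0 thus lay far above the highest library of any other cluster, and cluster 0 exceeded cluster 2 by 3.30 on the log2 scale (3.23 to 3.37). Behind cluster 0 the order was clusters 2, 1, 4, 3, 5 and 6, but the library ranges of each neighbouring pair in that order overlapped. When each cell was thinned to 5000 UMIs, 63.3% of cluster 0 and 11.3% of cluster 2 still held an Npr3 UMI, against 2.74% of cluster 5.

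Gata6 was also highest in cluster 0, but reached beyond the endothelium. In cluster 0 its level was 1.03, 1.02 and 1.09 in the 3 libraries, and 64.8% of cells were positive. Cluster 4, which carries the stromal markers, came next with 0.653, 0.957 and 0.731 but only 27.8% positive cells, and cluster 1 had 0.241, 0.264 and 0.364. The 3 clusters did not overlap by library, and clusters 2, 3, 5 and 6 had at most 0.0665. Gata6 in cluster 0 exceeded cluster 2 by 3.97 on the log2 scale (3.85 to 4.10), a larger ratio than that of Npr3. Within cluster 0, Gata6 was little more frequent in cells with Npr3 than in cells without it. At 5000 UMIs, 41.1% of cells with Npr3 and 36.2% of cells without it held Gata6 (36.6 to 45.8% and 30.4 to 42.3%), intervals that overlap.

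Hapln1 was the gene of cluster 2, the largest cluster. Its level there was 3.76, 4.29 and 3.62 in libraries 1, 2 and 3, with 90.7% positive cells, against 1.74, 1.72 and 1.59 in cluster 0, with 58.1% positive cells. Cluster 2 exceeded cluster 0 in every library, and cluster 0 was lower by 1.21 on the log2 scale (the ratio was -1.21, -1.27 to -1.14). The remaining clusters had a low level of one size, 0.323 to 0.491, and their library ranges overlapped. Library 2 held the highest value in each of the clusters 1 to 6, and in cluster 3 the 32 cells of library 3 had only 0.0107. Cluster 1, although endothelial by its markers, was at this level, 3.22 below cluster 2 on the log2 scale (-3.38 to -3.07). Clusters 5 and 6, which lack endothelial markers for the most part, had 24.6% and 22.3% positive cells at medians of 36,066 and 32,186 UMIs, above the 12.4% of cluster 1 at 7875 UMIs, and the part of free RNA in these shares was not tested.

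Nfatc1, a calcium-regulated transcription factor needed for heart valve formation, was not confined to endothelium. Its level was 0.204, 0.172 and 0.128 in clusters 0, 1 and 2, with libraries between 0.112 and 0.258. Clusters 5 and 6 had 0.158 and 0.137, and clusters 4 and 3 had 0.0414 and 0.0350. The first 5 values overlapped from neighbour to neighbour in both library range and counting interval, and the endothelial clusters together were marginally lower than clusters 5 and 6 in each library (log2 ratio -0.19, -0.29 to -0.08). At a common depth the same held, with Nfatc1 in 9.42, 9.66 and 6.17% of the cells of the 3 endothelial clusters and in 7.84 and 6.47% of clusters 5 and 6. Nfatc1 was thus no rarer in clusters 5 and 6 than in the large endothelial cluster, and its lowest values were those of clusters 3 and 4.

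Cytl1, which encodes a secreted cytokine-like protein, had few UMIs and these lay in few cells. In cluster 0, 143 UMIs were spread over 69 cells, for a level of 0.114 (libraries 0.0833, 0.144 and 0.118). In cluster 1, 168 UMIs came from 22 cells, 2.75% of the cluster, and 81.0% of them from 10 cells (libraries 0.128, 0.264 and 0.259). The higher level of cluster 1 (0.20) therefore reflected a small set of cells with many copies, up to 37 in 1 cell, whereas in cluster 0 no cell had more than 10. Cluster 2 had 0.00306 over 5396 cells, clusters 4, 5 and 6 at most 0.00929, and cluster 3 had no UMI, which allows a share of up to 1.26% of its cells with a UMI. Over cluster 2 the excess was 5.21 on the log2 scale in cluster 0 (4.71 to 5.74) and 6.03 in cluster 1 (5.54 to 6.55).

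Gata4, Gata5 and Tbx20 had their highest level in cluster 4. Gata4 was at 0.195, 0.337 and 0.241 in the libraries of cluster 4 and at 0.0508, 0.0725 and 0.0257 in clusters 0, 1 and 2. Gata5 was at 0.145, 0.127 and 0.134 in cluster 4, at 0.0238 in cluster 0 and at most 0.00238 elsewhere, with no UMI in clusters 3 and 6. Tbx20 was at 0.337, 0.502 and 0.303 in cluster 4, at 0.0588 in cluster 0, at 0.0131 in cluster 1 and at most 0.00280 elsewhere. No library of cluster 4 fell within the range of another cluster for any of the 3 genes. In positive cells, cluster 4 had 14.7% for Gata4, 8.49% for Gata5 and 12.4% for Tbx20, so each gene was limited to a minority of that cluster too. In cluster 0 the same genes were rarer still, at 2.88, 1.65 and 2.06%, and 89.2% of its 74 Tbx20 UMIs came from 10 cells.

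The members were then compared between groups of clusters, calling a gene higher or lower where its level differed at least 2-fold and in the same direction in all 3 libraries. Between the endothelial clusters 0, 1 and 2, summed, and clusters 5 and 6, 7 of the 8 genes were higher and none lower, where 21.1% of 13,973 genes compared were higher and 12.6% lower. The ratios ran from 2.36 on the log2 scale for Tbx20 (1.42 to 3.45) to 3.39 for Npr3 (3.23 to 3.56), and Nfatc1 was the exception. For Gata5 the ratio of 3.18 (1.56 to 5.49) rested on 3 UMIs in clusters 5 and 6. At 5000 UMIs no Gata5 UMI was left in clusters 5 and 6, where 3 UMIs were taken as the limit, so the ratio was only a lower bound of 0.13 and 6 genes were called. With a minimum level of 0.05 in the higher group Npr3, Hapln1 and Gata6 alone remained, since the other called genes are rare in endothelium as a whole. The median log2 ratio over all genes was 0.09.

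Against cluster 4, the sum of clusters 0, 1 and 2 divided the members. All 4 endocardial genes were higher in that sum and all 4 GATA and T-box genes lower. Of 13,866 genes, 8.76% and 17.6% were called in these directions. Cluster 2 gave 140,516,887 of the 161,515,861 UMIs summed, and single clusters differed. Gata6 was higher in cluster 0 than in cluster 4 (1.05 against 0.756). Hapln1 was lower in cluster 1 (0.415 against 0.491, library ranges overlapping). Cytl1 was lower in cluster 2 (0.00306 against 0.00929, the latter from 11 UMIs). Hapln1 was higher by 2.84 on the log2 scale (2.73 to 2.96), Npr3 by 1.99 (1.74 to 2.25) and Nfatc1 by 1.72 (1.31 to 2.16). Cytl1 was higher by 1.24 (0.38 to 2.25), which was 0.95 without library 3 and then under 2-fold. Tbx20 was lower by 5.68 (ratio -5.68, -5.99 to -5.38), Gata5 by 5.18, Gata4 by 3.04 and Gata6 by 2.29 (ratios -5.18, -3.04 and -2.29). The median over all genes was -0.18.

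Cluster 3 had little of any member. Of the 7 genes with a ratio 6 were higher in the endothelial clusters, where 26.1% of 13,777 genes were, and none was lower, where 13.2% were. Hapln1 (log2 ratio 3.21, 3.04 to 3.39), Npr3 (2.97, 2.53 to 3.45), Gata6 (2.26, 1.67 to 2.92) and Nfatc1 (1.96, 1.40 to 2.59) had the counts to show it. Cytl1 had no UMI in cluster 3 and was at least 5.21-fold higher in endothelium, with 3 UMIs taken as the limit for cluster 3. Tbx20 had 2 UMIs there, and its ratio of 1.34 (-0.54 to 4.41) fell to 0.93 without library 1 and to -0.085 at 5000 UMIs, so no direction can be read from it. Gata4 was at 1.10 (0.21 to 2.17) and went the other way in library 3, without which it was at 1.96 and in one direction, and Gata5 was too rare for a ratio.

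**Figure D2:**
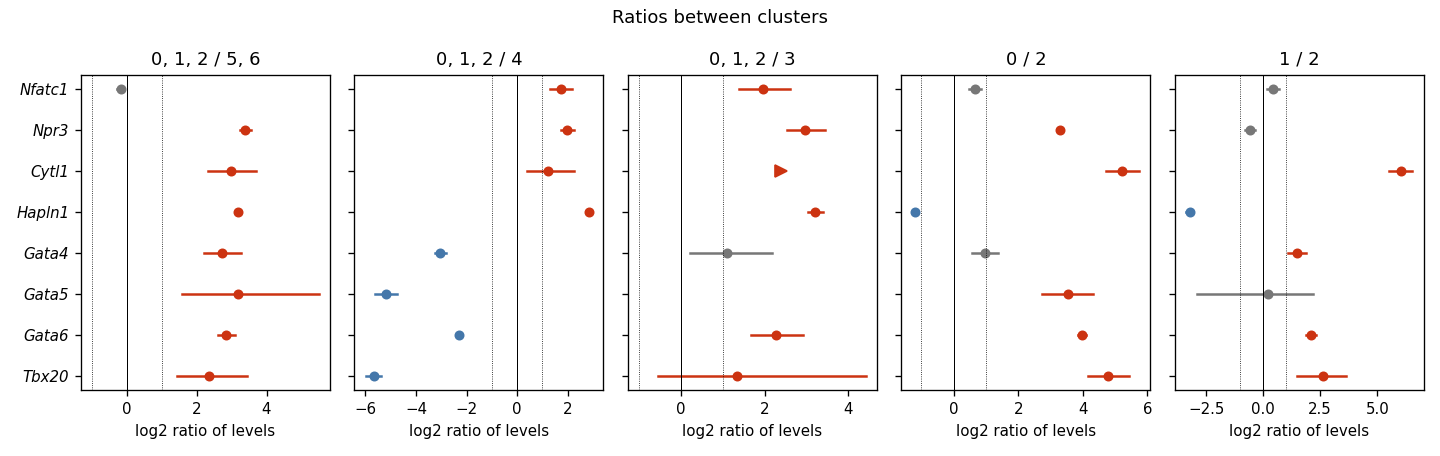
Log2 ratio of levels for each gene in 5 comparisons of clusters, with 95% counting intervals, on axes that differ between panels. Red and blue mark genes at least 2-fold higher or lower in the same direction in 3 libraries, grey marks the rest, the triangle for Cytl1 against cluster 3 is a lower bound, Gata5 has no ratio there, and dotted lines mark 2-fold. Against cluster 4 the 4 endocardial genes lie to the right and the 4 transcription genes to the left.

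Within the endothelium, cluster 0 held more of most members than cluster 2. Npr3, Cytl1, Gata5, Gata6 and Tbx20 were higher and Hapln1 alone was lower, where 12.1% of 13,767 genes were higher and 4.92% lower. Besides the ratios given above, Tbx20 was higher by 4.78 on the log2 scale (4.15 to 5.45) and Gata5 by 3.53 (2.74 to 4.32), the latter 4.79 without library 2, 1.98 without library 3 and 1.67 at 5000 UMIs. Gata4 stood just under the line at 0.98 (0.58 to 1.37) and reached 1.14 without library 1, and Nfatc1 was at 0.67 (0.48 to 0.86). Cluster 1 differed from cluster 2 in another way. Cytl1, Gata4, Gata6 and Tbx20 were higher, where 20.8% of 13,748 genes were, and Hapln1 was lower, where 12.3% were. Gata6 was higher by 2.10 (1.89 to 2.31), Gata4 by 1.5 (1.08 to 1.89) and Tbx20 by 2.61 (1.47 to 3.65), and Npr3 was at -0.57 (-0.82 to -0.34), higher in 1 library and lower in 2. Gata5, with 2 UMIs in cluster 1, was at 0.20 (-2.91 to 2.19) and was called higher only without library 2, at 1.57.

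A cell can hold more than one endocardial gene. Of the 6923 cells of clusters 0, 1 and 2, 24.9% (23.9 to 26.0%) were positive for at least 2 of Nfatc1, Npr3, Cytl1 and Hapln1, against 4.41% of clusters 5 and 6, which are deeper. Clusters 0, 2 and 1 had shares of 55.4, 23.8 and 5.01%, and at 5000 UMIs these were 30.9, 12.6 and 2.82%. Cells with at least 3 made up 10.9% of cluster 0 and 2.21% of cluster 2. In cluster 0 the pair was most often Npr3 and Hapln1, yet at 5000 UMIs Hapln1 was found in 37.9% of cells with Npr3 and 46.8% of cells without (33.4 to 42.5% and 40.7 to 53.0%), so there was no excess of the pair over the separate frequencies.

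The rare transcription factors of cluster 0 lay together in a small set of cells. Taken after the values had been seen, the 30 cells of cluster 0 with a UMI of Gata4 or Tbx20 came from all libraries (8, 15 and 7 cells), and 11 of them held both genes. They had a median of 14,223 UMIs, against 14,042 in the other 698 cells. Nfatc1 was present in 66.7% of these 30 cells and in 21.5% of the others, and its level was higher by 3.04 on the log2 scale (2.62 to 3.44). Hapln1 was in 80.0% against 60.9% (level higher by 1.69, 1.5 to 1.88), Gata5 in 23.3% against 1.29% and Hand2, a partner of GATA factors in heart and limb, in 46.7% against 5.73%. Gata6 was in 80.0% against 70.8%, and its level was higher by 0.83 (0.52 to 1.13). Npr3 was no more frequent, at 83.3% against 84.4%, and its level was lower (log2 ratio -0.27, -0.55 to -0.01). Cytl1 was found in 2 of the 30. Levels in the 30 cells were also lower for Emcn (log2 ratio -1.03, -1.24 to -0.82) and Vwf (-0.49, -0.70 to -0.28). Both are counted below among other endocardial and valve genes. The connexin genes Gja4 (-0.60, -0.73 to -0.47) and Gja5 (-0.84, -1.08 to -0.61) were lower too. All 30 held Cdh5, the vascular cadherin, and 1 held Actc1, the cardiac actin, against 5.73% of the others. The same split gave 45 cells in cluster 1 and 177 in cluster 2. Gata6 was in 57.8% against 15.8% in cluster 1 and 33.3% against 11.6% in cluster 2. Hand2 was in 40.0% against 4.11% and 4.52% against 1.82%, and Nfatc1 in 22.2% against 15.0% and 39.5% against 24.5%. Hapln1 was in 20.0% against 12.5% in cluster 1 but 81.9% against 92.7% in cluster 2. The 45 and 177 cells were deeper than the others (medians 11,543 against 7748 and 26,889 against 22,314).

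Cluster 4 also showed a combination of these factors, in cells most of which lacked Cdh5. At 5000 UMIs, 54 of its 512 cells held Tbx20, and Gata6 was found in 70.4% of these and 13.3% of the others (56.4 to 82.0% and 10.3 to 16.8%). Gata4 was in 31.5% against 5.46% and Gata5 in 29.6% against 2.62%. Hand1 and Hand2, both factors of heart and lateral mesoderm, were in 44.4% against 12.5% and 50.0% against 13.3%, and Actc1 in 42.6% against 7.64%. In contrast, Emx2, a factor of the urogenital ridge, was in none of the 54 cells, which allows up to 5.56%, and in 9.83% of the others, and Lhx9, expressed in the gonad, was in 1 of 54 against 9.61%. Gata4 did not keep to the Tbx20 cells. Lhx9 was found in 28.6% of the 42 cells with Gata4 against 7.02% of those without, and Wt1, a factor of mesothelium and gonad, in 23.8% against 11.9% (12 to 39.5% and 9.13 to 15.2%). Cdh5 was in 9.26% of the Tbx20 cells and 15.9% of the others. Stromal markers had a summed level of 21.1 in cluster 4 and of at most 2.69 elsewhere. Cardiomyocyte markers had 4.17 in cluster 4, of which Actc1 gave 2.91, against at most 0.871 elsewhere. Of the 12 cardiomyocyte markers, 9 could be compared. Of these, 5 were lower in the endothelial clusters, summed, than in cluster 4, where 17.6% of 13,866 genes were. None was higher, where 8.76% were. In cluster 1, 7 of the 9 were higher than in cluster 2, where 20.8% of 13,748 genes were. Another 1 was lower there, where 12.3% of genes were. Myh6, the atrial and adult ventricular myosin heavy chain, was at 0.0309 in cluster 4 and 0.0416 in cluster 1. The part of these stromal markers in the values of cluster 4 was not tested.

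**Figure D3:**
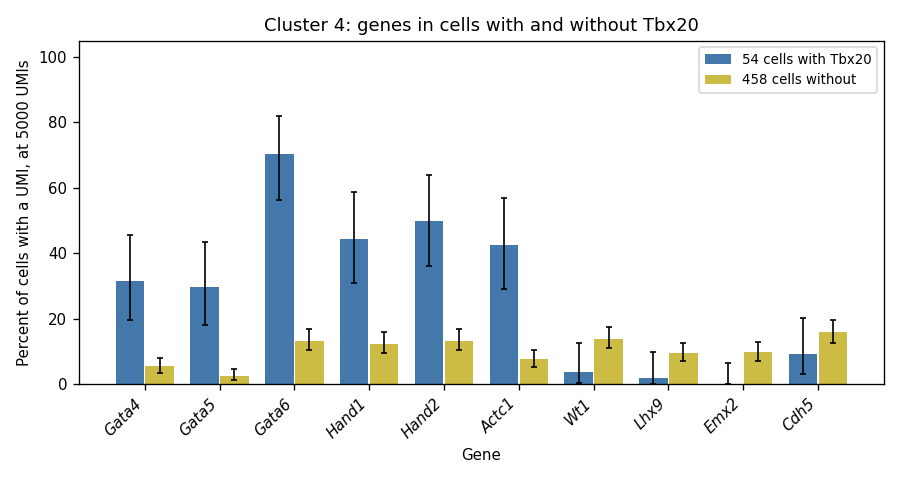
Percent of cells of cluster 4 with a UMI of each gene after thinning to 5000 UMIs per cell, in cells with Tbx20 (blue) and without (yellow), with 95% exact binomial intervals. Gata4, Gata5, Gata6, Hand1, Hand2 and Actc1 are more frequent in the 54 Tbx20 cells, whereas Wt1, Lhx9 and Emx2 are not.

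Gata5 and Tbx20 varied most closely of all pairs of members, with a Pearson correlation of 0.98 over the 21 sums of a cluster in a library, which share libraries and depth. For this pair of genes, the 250 bases before the RefSeq start sites (GRCm38.p6, both minus strand, at chr2:180334680-180334929 and chr9:24774304-24774553) are shown 5′ to 3′. They are printed in lower case throughout, since neither window held a GATA word on either strand (GATA with adenine or thymine before it and adenine or guanine after it), which 29.8% of 32,851 promoter windows of 300 bases contained.
Gata5: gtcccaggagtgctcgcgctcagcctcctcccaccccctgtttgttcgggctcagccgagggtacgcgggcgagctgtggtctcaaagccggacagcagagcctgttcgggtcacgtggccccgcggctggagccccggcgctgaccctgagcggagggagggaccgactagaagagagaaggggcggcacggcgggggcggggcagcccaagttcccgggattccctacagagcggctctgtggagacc
Tbx20: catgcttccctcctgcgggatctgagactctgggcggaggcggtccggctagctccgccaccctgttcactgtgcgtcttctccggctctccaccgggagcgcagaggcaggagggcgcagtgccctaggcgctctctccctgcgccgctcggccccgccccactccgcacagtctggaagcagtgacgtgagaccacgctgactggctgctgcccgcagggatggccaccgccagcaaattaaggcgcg
Both windows were rich in G and C (69.7% and 68.3% over 300 bases), compared with 39.0% for Npr3, 55.0% for Cytl1 and 54.3% for Hapln1, and none of these 5 genes had a GATA word in its window. No window was used here for the other 3 members.

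The genes most like each member over the same 21 sums, among 8987 candidates, fell into groups. Npr3 was followed by Gja4 (r = 0.97), an arterial connexin, Dhh (0.96) and Cyp26b1 (0.95). Nfatc1 was followed by Cbfa2t3 (0.94), Hhex (0.93) and Klhl6 (0.93). Hapln1 had no neighbour above 0.89 (Tmem255a), and Cytl1 came next to Hip1r (0.97). Gata6 was most like Ccdc80 (0.99) and Fbn1 (0.98), both genes of extracellular matrix proteins, and Gata4 most like Lrig3 (0.97). Cnn1, a smooth muscle calponin, was among the 3 nearest to both Gata5 (0.98) and Tbx20 (0.97). The values are descriptions, since the points are not independent.

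In cluster 1 the members differed between cells with Xist and cells with Y-linked UMIs. Of its 799 cells, 175 held Xist and no Y-linked UMI (median 6264 UMIs) and 443 a Y-linked UMI and no Xist (median 9118 UMIs). Cytl1 was found in 20 of the 175 (11.4%) with 166 UMIs, and in 2 of the 443 (0.451%) with 2 UMIs. By library, 5 of 52, 6 of 39 and 9 of 84 Xist cells held it, against 2 of 231, 0 of 106 and 0 of 106 Y-linked cells. The log2 ratio of levels was 8.19 (6.31 to 11.25), and nearly all Cytl1 of cluster 1 thus came from cells of one kind. Npr3 was also higher in the Xist cells of cluster 1 (0.534 against 0.0972, log2 ratio 2.46, 1.93 to 3.0), as was Tbx20 (7 cells against 2, 3.98, 1.71 to 7.23), with smaller ratios for Gata4 (1.13, 0.19 to 2.02) and Nfatc1 (0.94, 0.37 to 1.49), each in the same direction in all 3 libraries. Gata6 (0.96, 0.53 to 1.39) and Hapln1 (0.76, 0.34 to 1.16) were not of one direction, since Gata6 was lower in the Xist cells of library 1 (0.230 against 0.285) and Hapln1 in those of library 3 (0.302 against 0.370).

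The 22 Cytl1 cells of cluster 1 held other members more often than the rest of it. Gata6 was in 15 of them (68.2% against 16.7%), Npr3 in 8 (36.4% against 7.34%), Gata4 in 7 (31.8% against 4.12%) and Tbx20 in 5 (22.7% against 0.515%). Their Npr3 level was 3.03, from 47 UMIs in 8 cells, and they carried the von Willebrand factor gene Vwf at 8.78 against 0.667. Cd36, the fatty acid carrier of heart capillaries, was in 27.3% of them and 60.4% of the other cells. Nfatc1 was in 3 of them (13.6% against 15.4%) at a level of 0.646 against 0.163, and Hapln1 in 5 (22.7% against 12.6%) at 1.87 against 0.388. The 22 cells had a median of 6174 UMIs.

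In cluster 0, Cytl1 was in 21 of 273 Xist cells and 37 of 326 Y-linked cells (log2 ratio -0.45, -1.0 to 0.08), and Npr3 (0.04, -0.06 to 0.15) and Gata6 (-0.09, -0.26 to 0.08) were level. The rare factors of cluster 0 were nevertheless higher in Xist cells, Tbx20 by 2.10 (1.27 to 3.03) and Gata4 by 1.26 (0.44 to 2.13). Tbx20 was higher in each library, but Gata4 went the other way in library 3 (0.0565 against 0.0767). In all, 19 of the 30 cells with Gata4 or Tbx20 held Xist alone, against 8 with Y-linked UMIs alone. In cluster 4, Tbx20 was in 50 of 196 Xist cells and 17 of 229 Y-linked cells (log2 ratio 2.69, 2.27 to 3.14), and Gata5, Gata6 and Hapln1 were higher by 1.52 (0.94 to 2.12), 1.43 (1.19 to 1.68) and 1.18 (0.89 to 1.48), each in all 3 libraries. Gata4 was at 0.68 (0.29 to 1.08) and went the other way in library 1 (0.144 against 0.192). Tbx20 was higher in the Xist cells of cluster 4 in each library (0.636, 0.933 and 0.518 against 0.0935, 0.158 and 0.0851). In cluster 2 no member differed by 2-fold between the 2 kinds of cells, and how cells with Y-linked UMIs entered the pools is not given in the sources used here.

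**Figure D4:**
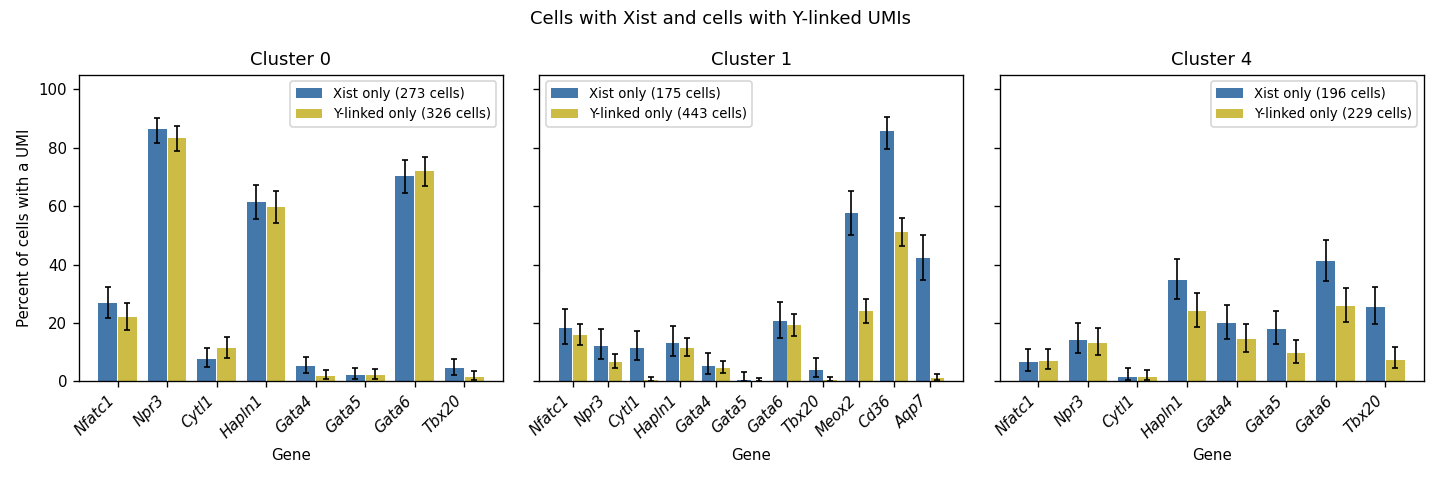
Percent of cells with at least 1 UMI of each gene among cells with Xist and no Y-linked UMI (blue) and cells with a Y-linked UMI and no Xist (yellow) in clusters 0, 1 and 4, with 95% exact binomial intervals. In cluster 1 Cytl1 stands at 11.4% against 0.451% and the capillary genes Meox2, Cd36 and Aqp7 differ too, whereas Npr3 and Gata6 are level in cluster 0.

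The members were set beside other genes of heart and endothelium. The 8 heart capillary genes, among them the fatty acid handling genes Fabp4, Cd36, Lpl and Aqp7 and the factors Meox2 and Tcf15, were those of cluster 1. Of the 8, 7 were higher in cluster 1 than in cluster 2, where 20.8% of 13,748 genes were. The summed level of the 8 was 74.3 in cluster 1, against 1.73 to 3.35 in the other clusters. Lpl was lower in the endothelial clusters, summed, than in clusters 5 and 6, and the other 7 were higher. Of 13,973 genes, 12.6% and 21.1% were called in these directions. Fabp4 was at 65.0 in cluster 1 and 1.32 in cluster 2, Cd36 at 4.04 and 0.158, and Meox2 at 0.594 and 0.0229. None of the 8 was higher in cluster 0 than in cluster 2, where 12.1% of 13,767 genes were. Car4 and Rgcc were lower, where 4.92% of genes were. The 7 endothelial genes of other organs, such as Stab2 of sinusoids and Mfsd2a of the brain, had summed levels of 4.60, 1.66 and 3.81 in clusters 0, 1 and 2. Of these, 5 were lower in cluster 1 than in cluster 2, where 12.3% of 13,748 genes were. Clec4g was higher, where 20.8% of genes were. Within cluster 1, Aqp7 was in 42.3% of Xist cells and 1.13% of Y-linked cells, Meox2 in 57.7% and 23.9% and Cd36 in 85.7% and 51.2%, so the capillary genes moved with Cytl1 between the kinds of cells, although the 22 Cytl1 cells themselves had less Cd36.

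Other endocardial and valve genes gathered in cluster 0. The summed level of 16 such genes was 40.2 there, against 21.2 in cluster 2, 19.9 in cluster 1 and at most 5.48 elsewhere. Of the 14 that could be compared, 8 were higher in cluster 0 than in cluster 2, where 12.1% of 13,767 genes were. Another 1 was lower, where 4.92% of genes were. The median log2 ratio was 1.53, against 0.13 over all genes. Vwf was at 5.21 in cluster 0 and 0.216 in cluster 2, Tmem100, a target of BMP signalling in endothelium, at 2.98 and 0.0339, and Edn1, which encodes endothelin, at 2.38 and 0.192. Prox1, the lymphatic and valve factor, was the gene that was lower, at 0.0310 against 0.179. Several of the 16, such as Vwf, Plvap and Edn1, also mark veins or arteries outside the heart, and Emcn is also among the endothelial markers.

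The other cardiac transcription genes were mostly those of cluster 4. Of 13 such genes, 11 could be compared. Of these, 9 were lower in the endothelial clusters, summed, than in cluster 4, where 17.6% of 13,866 genes were. Mef2c alone was higher, where 8.76% of genes were. The median log2 ratio was -3.33, against -0.18 over all genes. Hand1 was at 0.826 in cluster 4 and at most 0.0238 elsewhere, and Tbx5 at 0.0954 and at most 0.00357. Nkx2-5, the homeobox gene of heart muscle, was at 0.0473 in cluster 4, in 4.44% of its cells, and at most 0.00476 elsewhere. Isl1, a factor of the second heart field, was at 0.883 in cluster 0, in 50.1% of cells, next to 0.618 in cluster 4 and 0.0299 in cluster 2. Hand2 was higher in both cluster 0 and cluster 1 (0.107 and 0.124) than in cluster 2 (0.0103).

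The remaining GATA genes and the cofactors that bind GATA proteins had orders of their own. Gata1, the erythroid and megakaryocyte factor, was at 1.51 in cluster 6, in 82.9% of its cells, and at most 0.0168 in clusters 0 to 4. Gata2 was highest in cluster 0 (0.824), followed by cluster 1 (0.522) and cluster 5 (0.392), and Gata3 in clusters 0 and 4 (0.480 and 0.334). Of the cofactors, Zfpm1 (FOG1) was highest in cluster 6 at 3.13, and Zfpm2 (FOG2), the partner of GATA4 in the heart, in cluster 2 at 0.129. Gata4, Gata5 and Gata6 were at or below 0.0223 in clusters 5 and 6.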

How the data were processed

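Adult cardiac endothelial cells of all time points had been pooled and sequenced by the study with 10x Genomics 3′ v3 chemistry, and the reads were processed with Cell Ranger 3.1.0, which also joined the libraries with batch-effect removal. The build named in the labels is mm10. The UMI counts deposited by the authors are whole numbers per Ensembl gene and cell without normalization, and the Leiden cluster of each cell was taken as deposited. The deposited log-normalized table was not used. Of 27,998 rows, 27,722 were named from GENCODE M21 and equal names were summed. The study states a filter of 5,000 UMIs, which 9,472 of the 9,562 cells meet. The methods call the cells singlets, and no doublet caller was run.

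The matrix was treated as 1 sample of 252,339,042 UMIs. Library medians were 23,651, 13,441 and 38,312 UMIs per cell. Sums of UMIs were compared with exact Poisson, conditional binomial and Clopper-Pearson intervals at the 95% level, without P values, for genes with at least 100 UMIs. Where a group had no UMI, 3 UMIs were taken as its limit. Thinning used 5,000 UMIs per cell (seed 1) and left out 90 cells. The ratio and call functions were tested on simulated data. For each member, the 3 genes with the highest correlation of log2(level + 0.02) were named. The members, lists and tests were chosen with earlier results of these data known, and the Xist and Y-linked split was added after seeing the data. Python 3.11.15, numpy 2.4.6, pandas 2.3.3 and scipy 1.17.1 were used. The alternatives were other thresholds, thinning, leaving out each library or the deepest 1% of cells, equal weight per cell, a 1.5-fold call and a minimum level.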

Additional observations from a re-analysis of the deposited data

How the results depend on the processing

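Of 118 alternative values of the counts and shares reported, 106 stayed within 1.5 times of a reported count or within the 95% counting interval of a reported share. Some of the 106 were counts of 0 that stayed at 0. The ratios and positive shares of single genes were less stable. Of their alternative values, 541 stayed within the counting interval, 272 moved out of it and 1 reversed. Between endothelial clusters and clusters 5 and 6, 3 members were higher with a minimum level of 0.05. In cells with Y-linked UMIs and no Xist, a split chosen after seeing the data, 3 members (not 5) were higher in cluster 0 than in cluster 2, 2 (not 4) were higher in cluster 1 than in cluster 2 and 2 (not 1) were lower. The share of endothelial cells with at least 2 endocardial genes depended on the threshold and on depth. It was 42.8% above 0 counts per 10,000, 12% above 1, 13.5% at 5000 UMIs, 21.8% to 26.6% with each library left out in turn, 27.9% in Xist cells and 23.8% in Y-linked cells. The ratio of Tbx20 between endothelium and cluster 3 reversed to -0.085 at 5000 UMIs. The cause was not tested, except that the minimum level leaves fewer genes to call and thinning removes UMIs. No test, paired or not, was run, because the matrix was treated as 1 sample, and the direction within each library was used instead. Depth limits Gata5, Tbx20 and Cytl1 most, with 226, 559 and 385 UMIs in all.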

Other observations

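The Hox genes, which record the position of a tissue along the body axis, were summed after the values of the members had been seen. Over the 39 Hox genes of the table the summed level was 9.78 for cluster 4, 3.72 for cluster 0, 3.33 for cluster 2 and 0.953 for cluster 1. It was 0.50 to 0.687 in clusters 3, 5 and 6. The libraries of clusters 0 and 2 lay between 3.22 and 3.73, all above those of cluster 1, which lay between 0.817 and 1.43. At 5000 UMIs, a Hox UMI was held by 77.6, 27.4 and 74.4% of the cells of clusters 0, 1 and 2 and by 24.6% of cluster 5. Cluster 1, with the highest level of heart capillary genes, thus had the lowest Hox level of the endothelial clusters.

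The gonadal and epicardial marker lists, which share Wt1, had summed levels of 1.14 and 2.09 in cluster 4 and at most 0.248 and 0.265 elsewhere. Of their 6 and 7 genes, 3 and 6 could be compared. All of these were lower in the endothelial clusters, summed, than in cluster 4, where 17.6% of 13,866 genes were.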
